A study of Mus musculus with 4 samples.

Results

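Nuclear receptors are transcription factors that bind DNA and, in many cases, a small lipophilic ligand such as a thyroid hormone, a retinoid, an oxysterol or a steroid. Their messenger RNAs were followed here in cortex of mouse embryos at stage E16.5. The members were the protein-coding rows of the deposited tables whose gene names belong to the nuclear receptor families, leaving out Nr2f1, Nr2f2, Nr2e1, Nr4a1 and Nr4a2. Of 22619 genes listed in at least 1 of the 2 tables, 34 were members, and 32 of these were listed in both tables. Nr1i2, Esr2, Nr2e3, Nr5a1, Hnf4a, Hnf4g and Nr0b2 are not analysed here. All mice were on the C57BL/6 background. One group of 2 libraries was labelled wild type (replicates 1 and 4, WT). The other group of 2 libraries, cKO replicates 1 and 2, was labelled as conditional knockout of H2A.Z.2, a histone variant that the gene H2afv encodes. The labels name neither the Cre driver nor the deleted exons, and do not say whether each library was a separate embryo, so p-values reflect only how far these libraries differ, which may be partly technical. The series asks how progenitors with or without this variant act on microglia, and receptors were not its stated subject.

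A nuclear receptor typically carries a DNA-binding domain with paired zinc fingers and a ligand-binding domain that recruits corepressors or coactivators. Retinoid X receptors (RXRs) are the shared partners of thyroid hormone, retinoic acid, liver X, peroxisome proliferator-activated and vitamin D receptors, whereas steroid receptors act mainly as homodimers after release from heat shock protein complexes. In developing cortex, thyroid hormone and retinoic acid signalling are known for their roles in the timing of neurogenesis and neuronal maturation, and unliganded thyroid hormone receptors act as repressors.

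The libraries held 16625181 to 17940659 reads in listed genes, of which 18876 to 25924 fell on members. CPM below are the counts of a gene relative to library size, scaled by TMM, a normalisation between libraries. H2afv was at 136 and 222 CPM in WT replicates 1 and 4 and under the cKO label at 128 and 127 CPM (log2 fold change -0.49, SE 0.23, edgeR adjusted p = 0.956). The targeted gene thus hardly set cKO apart from WT replicate 1, and the counts cover the whole gene, so the groups are called by their labels. WT replicate 4 stood apart on the first principal component, at 53.7 against -25.9 to -10.0 for the other 3. Markers of dorsal cortex summed to 2576 to 3849 CPM with none of 9 at 0. The 10 mitosis genes, none at 0, summed to 1011 CPM in WT replicate 4 and 404 to 486 CPM elsewhere. The 8 listed hypothalamus genes summed to 142 CPM in WT replicate 4 and 6.36 to 56.0 CPM elsewhere. For 10 choroid plexus genes the sum was 518 CPM in cKO replicate 1 and 18.3 to 61.7 CPM elsewhere. Ttr alone was at 466 CPM in cKO replicate 1. Otx2 was highest in WT replicate 4 at 8.10 CPM and Kl in WT replicate 1 at 0.519 CPM. The part of these differences in the results that follow was not tested unless stated.

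One receptor gene dominated the set. Thra, which encodes thyroid hormone receptor alpha, took 60.1% and 54.9% of all member CPM in WT replicates 1 and 4 and 61.9% and 63.5% in cKO replicates 1 and 2. Levels of different genes were compared as CPM per kilobase of annotated exon. On this scale Thra averaged 177 ± 31.7 (SD, n = 4 libraries), above 98.8% of the 13861 protein-coding genes tested. Rxrb followed at 30.1 ± 2.61, and Nr1h2, which encodes liver X receptor beta, at 29.3 ± 2.39 CPM per kilobase. These last 2 did not differ beyond their spread. Rxrg came next at 15.5 ± 6.34 and Esrra, an estrogen-related receptor that drives mitochondrial genes, at 9.72 ± 0.560 CPM per kilobase. The level of Nr4a3, an activity-induced orphan receptor, was 7.56 ± 1.93, and Nr1d1, Rara and Rxra lay within their spread of each other at 5.61 ± 1.12, 5.53 ± 0.640 and 5.15 ± 0.780 CPM per kilobase. At the low end of the genes tested stood Thrb at 0.186 ± 0.0348 and Esrrb at 0.132 ± 0.0805 CPM per kilobase, whose spreads overlapped.

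**Figure D1:**
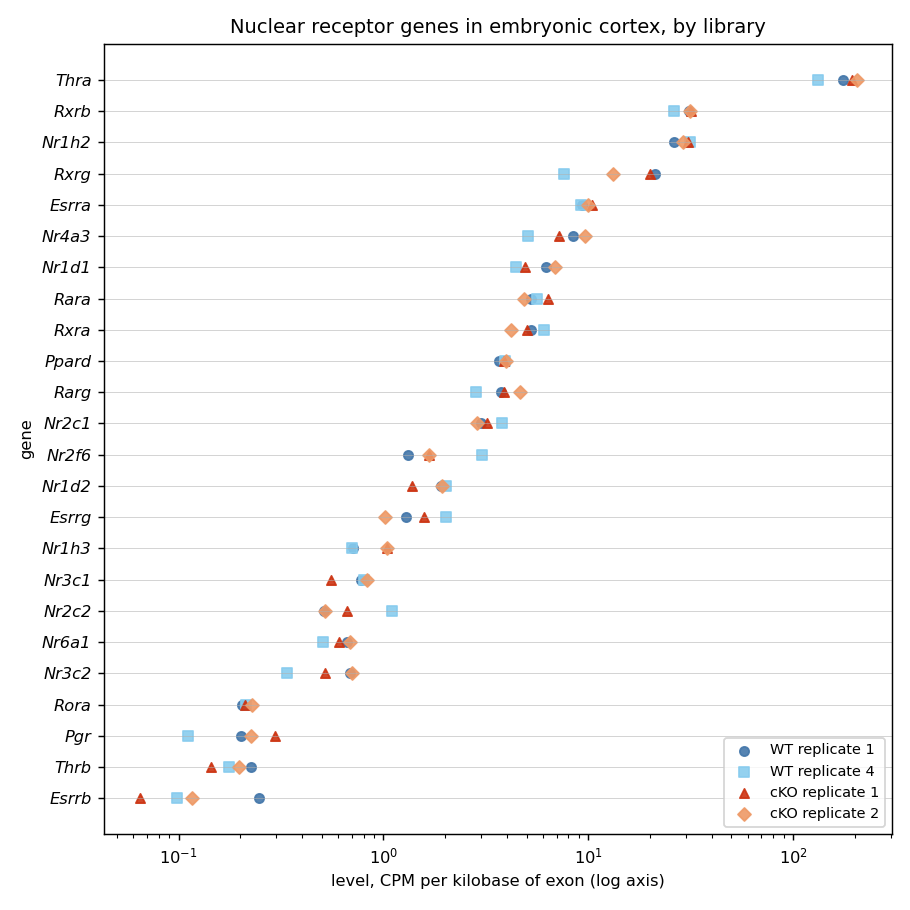
Level of 24 of the 25 tested nuclear receptor genes in the 4 libraries, in CPM per kilobase of exon on a log axis, with 1 symbol per library and genes ordered by their mean. Thra lies at 133 to 204 CPM per kilobase, and WT replicate 4 (squares) is often at an end of the row, as for Rxrg at 7.64 CPM per kilobase.

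No member passed the test between the libraries labelled cKO and WT. A filter on low counts (filterByExpr in edgeR, minimum count 10) left 25 of the 32 members listed in both tables, among 16269 genes. With edgeR's quasi-likelihood test and Benjamini-Hochberg adjustment over all 16269 genes, 0 members passed 5% FDR, where 0% of all genes did, and 0 members had an unadjusted p below 0.05, where 1.67% of all genes did. DESeq2 also called 0 genes. Of the 25 tested members 15 had a log2 fold change above 0 and 10 below, and 51.9% of all genes tested were below. The median over tested members was 0.05 on the log2 scale, beside -0.01 over all genes tested. Both cKO libraries lay above both WT libraries in 6 members (Thra, Rxrb, Rarg, Nr1h3, Pgr and Esrra), where 16% of all genes did so. They lay below both in Rxra alone, where 15.7% of all genes did so. The 95% confidence interval stayed within a 2-fold difference in either direction for 15 members and reached beyond it for 10. In bulk tissue, fewer cells of a type and less RNA per cell cannot be told apart.

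**Figure D2:**
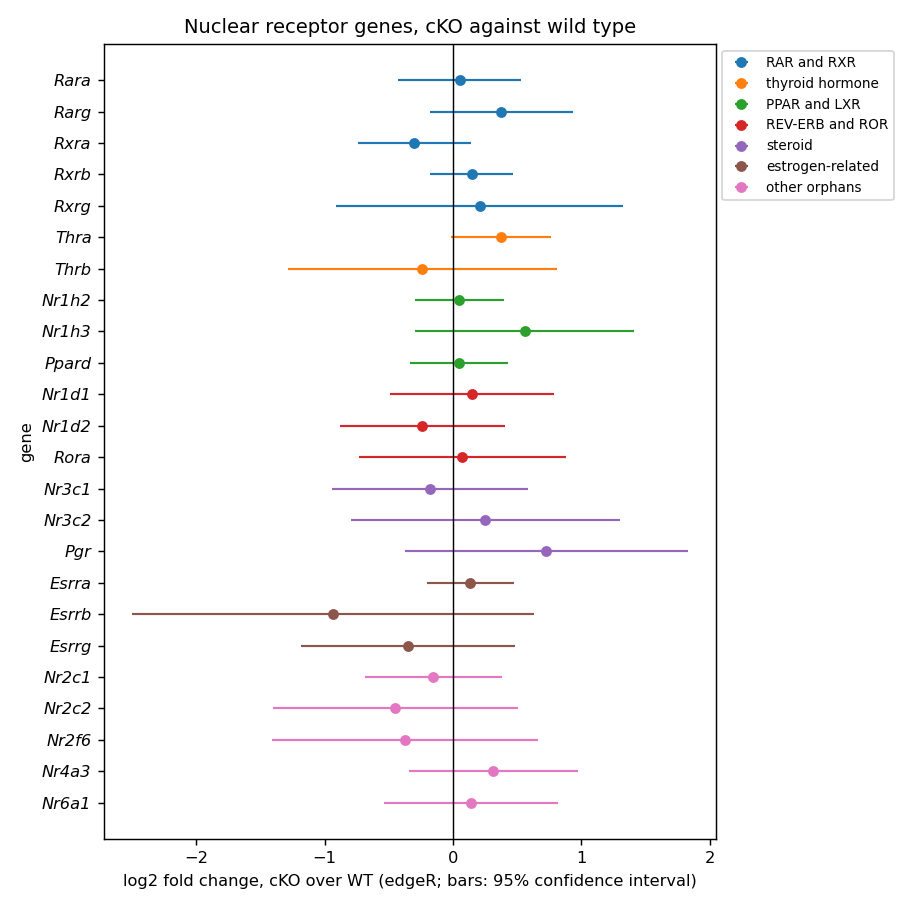
Log2 fold change of 24 of the 25 tested receptor genes, libraries labelled cKO over WT, from the edgeR fit, with bars for the 95% confidence interval and colours for the receptor family. Every interval includes 0, from the narrow ones of Rxrb and Esrra to that of Esrrb, which runs from -2.50 to 0.63.

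The retinoid X receptors differed in how evenly they were expressed. Rxrb, the RXR with the highest level, was at 123 and 104 CPM in WT replicates 1 and 4 and at 126 and 125 CPM in cKO replicates 1 and 2. The library that lay low was WT replicate 4, and the log2 fold change was 0.14 (SE 0.13, edgeR adjusted p = 0.956), or 0.036 without that library. Rxra was at 28.8 and 33.3 CPM in WT and 27.5 and 23.0 CPM in cKO. Its means were 31.1 ± 3.22 and 25.2 ± 3.17 CPM (SD, n = 2 each), and the fitted log2 difference was -0.30 (SE 0.18), with an interval at 95% confidence of -0.74 to 0.14. Rxrg, which is known for its expression in striatum, pituitary and muscle, was at 48.7 and 17.6 CPM in WT replicates 1 and 4 and at 46.1 and 30.3 CPM in cKO replicates 1 and 2. Here the WT libraries differed 2.77-fold and enclosed both cKO libraries, and the log2 fold change of 0.21 (SE 0.46) had a 95% confidence interval of -0.91 to 1.32. It was -0.34 without WT replicate 4 and 1.13 without WT replicate 1 (edgeR adjusted p = 0.0108), fits in which 1 WT library stands alone and is assumed to vary like the rest. Without WT replicate 1, 10.9% of all 16920 genes tested passed 5% FDR, beside 4 of 26 members (15.4%). Markers of the ventral telencephalon, 14 genes that include striatal ones, did not follow Rxrg. They summed to 840 and 1184 CPM in WT replicates 1 and 4 and to 1027 and 644 CPM in cKO, highest where Rxrg was lowest. Per kilobase, Rxrg made up 36.9% and 19.1% of the summed RXR level in WT replicates 1 and 4 and 35.3% and 27.0% in the libraries labelled cKO.

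**Figure D3:**
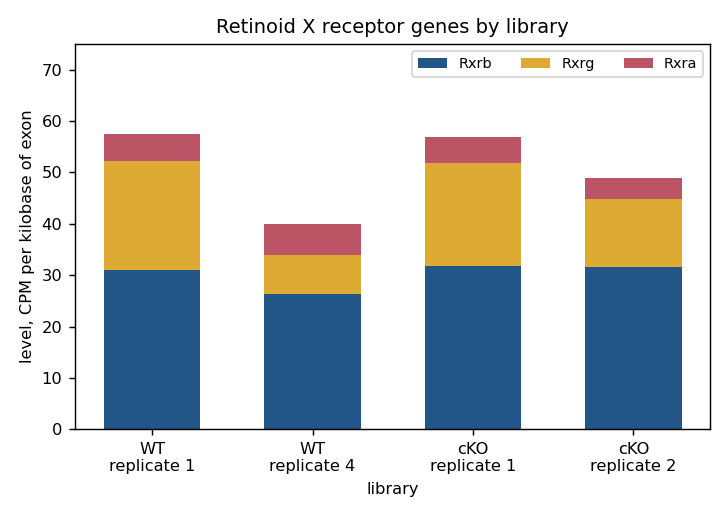
Level of the 3 retinoid X receptor genes in each library, in CPM per kilobase of exon, stacked. Rxrb keeps a similar height of 26.3 to 31.8 in all 4 libraries, while Rxrg ranges from 7.64 in WT replicate 4 to 21.2 in WT replicate 1.

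Rxrg has 2 annotated starts in RefSeq, and their promoters are shown because this gene varied most among the receptors above 10 CPM. Each window holds 250 bases before and 50 after a start, on GRCm38.p6. Capitals mark AGGTCA, the half-site that many nuclear receptors bind. The upstream window, chr1:167598112-167598411 on the plus strand, holds no match, and the downstream one, chr1:167618015-167618314, holds 1 match that begins 88 bases before the start. The gene-level counts do not separate transcripts from these starts.
Rxrg upstream start: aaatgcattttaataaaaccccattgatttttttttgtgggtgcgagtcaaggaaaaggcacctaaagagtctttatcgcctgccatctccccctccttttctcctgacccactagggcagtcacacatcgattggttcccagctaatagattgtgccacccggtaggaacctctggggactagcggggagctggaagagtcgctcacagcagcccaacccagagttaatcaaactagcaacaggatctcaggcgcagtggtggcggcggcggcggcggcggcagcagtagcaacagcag
Rxrg downstream start: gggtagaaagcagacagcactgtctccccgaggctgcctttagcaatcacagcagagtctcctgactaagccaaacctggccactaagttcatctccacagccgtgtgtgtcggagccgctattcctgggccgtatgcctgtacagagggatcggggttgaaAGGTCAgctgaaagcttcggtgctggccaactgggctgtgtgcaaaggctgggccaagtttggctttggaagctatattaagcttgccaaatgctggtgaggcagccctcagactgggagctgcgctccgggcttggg

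Windows on chromosome 18, where Nr3c1 lies, were left out of the search. RefSeq promoters on the other chromosomes matched 31 of the 34 members, with 49 windows. AGGTCA, searched on both strands, was found in 12 of these 49 windows (24.5%), against 16.3% of all 32851 windows of the same length. The windows with a match belonged to 11 genes, among them Rara, Rarg, Rxra and Thrb. The E-box CACGTG, which reads the same on both strands, was found in 4 of 49 member windows (8.16%) and 7.15% of all windows. The direct repeat of AGGTCA spaced by 4 bases (DR4), on either strand, which contains AGGTCA, was found in 0 of 49 and in 0.0152% of all windows. These are matches of letters and say nothing of binding.

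The retinoic acid receptors were expressed at moderate levels. Rara was at 23.0 and 24.5 CPM in WT and 27.9 and 21.3 CPM in cKO, which enclosed the WT values (log2 fold change 0.05, SE 0.20). Rarg was at 15.9 and 11.9998 CPM in WT replicates 1 and 4 and 16.498 and 19.7 CPM in cKO replicates 1 and 2. The lowest value was again that of WT replicate 4, and the log2 fold change was 0.37 (SE 0.23, edgeR adjusted p = 0.956), or 0.19 without WT replicate 4. Of 6 tested retinoic acid response genes, 0 passed 5% FDR, 1 had a log2 fold change above 0 and 5 below, and the median was -0.13. The retinoic acid-degrading enzyme gene Cyp26b1 was at 19.8 and 17.3 CPM in WT against 20.4 and 12.7 CPM in cKO, and the retinol uptake receptor gene Stra6 at 11.1 and 10.4 CPM against 13.1 and 7.29 CPM. In both of these genes the cKO libraries lay apart, with replicate 1 above replicate 2.

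Among the thyroid hormone receptors, Thra had the smallest unadjusted p of all members. It was at 810 and 612 CPM in WT replicates 1 and 4 and at 898 and 943 CPM in cKO replicates 1 and 2. The WT mean was 711 ± 140 CPM and the cKO mean 920 ± 31.9 CPM (SD, n = 2 each), with both cKO libraries above both WT libraries. The log2 fold change was 0.37 (SE 0.16, 95% confidence interval -0.02 to 0.76, edgeR adjusted p = 0.956). It was 0.19 without WT replicate 4 and 0.59 without WT replicate 1 (edgeR adjusted p = 0.00502), so its size depended on which WT library was used. Thrb, which encodes thyroid hormone receptor beta, was at 1.67 and 1.30 CPM in WT and 1.06 and 1.46 CPM in cKO, from 19 to 29 reads per library. Per kilobase, Thra exceeded Thrb 755-fold to 1355-fold, with the lowest ratio in WT replicate 4 and the highest in cKO replicate 1.

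Thra and Nr1d1 lie tail to tail on opposite strands of chromosome 11. In the deposited tables, whose positions match GRCm38, Thra spans 98740638 to 98769006 on the plus strand and Nr1d1 98767932 to 98775333 on the minus strand. In GENCODE M21 their exons share 263 bases, from 98768157 to 98768419, in 2 of 9 Thra transcripts and 1 of 2 Nr1d1 transcripts. The sources used here do not say whether strand was used in counting. If it was not, reads in these bases cannot be assigned to either gene, and with 1195 Nr1d1 reads against 56604 Thra reads over the 4 libraries the smaller gene is the one that such reads could alter.

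Genes of thyroid hormone supply and response were mostly above 0 without passing the test. Of 9 tested, 0 passed 5% FDR, 7 had a log2 fold change above 0 and 2 below, with a median of 0.20. Crym, a cytosolic thyroid hormone-binding protein, was at 38.1 and 12.8 CPM in WT and 34.5 and 30.0 CPM in cKO. Hr, a corepressor of thyroid hormone receptors and itself a known target gene, was at 21.7 and 15.8 CPM in WT and 27.5 and 27.8 CPM in cKO, a log2 fold change of 0.56 (SE 0.21, edgeR adjusted p = 0.956). In both genes, as in Thra, the lowest of the 4 values was that of WT replicate 4.

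Liver X receptors and peroxisome proliferator-activated receptors (PPARs) sense oxysterols and fatty acids. Nr1h2 was at 87.7 and 106 CPM in WT and 103 and 96.9 CPM in cKO, with overlapping groups (log2 fold change 0.05, SE 0.14). Nr1h3, which encodes liver X receptor alpha, was at 1.79 and 1.77 CPM in WT and 2.63 and 2.62 CPM in cKO, from 31 and 30 reads against 47 and 45 reads. The 2 libraries of each group lay close together, and the groups did not overlap. Its log2 fold change was 0.56 (SE 0.35, 95% confidence interval -0.29 to 1.41, edgeR adjusted p = 0.956) and stayed between 0.56 and 0.57 when any 1 library was left out. In level, Nr1h2 exceeded Nr1h3 27.7-fold to 44.7-fold per kilobase. The 10 microglia markers, a cell type in which Nr1h3 is known to act, summed to 44.8 and 50.5 CPM in WT and 58.1 and 43.3 CPM in cKO, with none at 0. In 3 of these 10 markers (C1qa, C1qb and Tmem119) both cKO libraries exceeded both WT libraries, beside 16% of all genes tested. In Fcrls alone both were lower, beside 15.7% of all genes tested. The gap was narrow in C1qa, 5.658 CPM (cKO replicate 2) over 5.654 CPM (WT replicate 1). C1qb had a narrow gap too, 7.758 CPM (cKO replicate 2) over 7.744 CPM (WT replicate 4). The part of microglia in the Nr1h3 values was not tested. Of 9 liver X receptor targets 0 passed 5% FDR, 2 had a log2 fold change above 0 and 7 below, with a median of -0.14. Scd2, a fatty acid desaturase gene, was at 604 and 866 CPM in WT and 651 and 586 CPM in cKO. Apoe, an apolipoprotein gene, was at 87.8 and 61.6 CPM against 117 and 78.1 CPM, and Srebf1, which drives fatty acid synthesis, at 76.0 and 103 CPM against 93.8 and 68.7 CPM. In each of these 3 the groups overlapped.

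Ppard was the only PPAR gene to pass the filter. It was at 27.5 and 29.5 CPM in WT and 29.1 and 29.7 CPM in cKO, a log2 fold change of 0.05 (SE 0.16). Pparg and Ppara had 1 to 5 reads per library. Of 11 tested PPAR targets 0 passed 5% FDR, 3 were above 0 and 8 below, with a median of -0.15. Hadha, a mitochondrial fatty acid oxidation enzyme gene, was at 112 and 125 CPM in WT and 107 and 101 CPM in cKO. The lipid droplet gene Plin2 was at 26.1 and 29.7 CPM against 27.3 and 24.3 CPM.

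The circadian receptors REV-ERB and ROR repress and activate the same response elements in the clock. Nr1d1, which encodes REV-ERB alpha, was at 19.0 and 13.7 CPM in WT and 15.1 and 21.2 CPM in cKO, so each group held a high and a low library (log2 fold change 0.15, SE 0.26). Nr1d2, which encodes REV-ERB beta, was at 10.3 and 10.9 CPM against 7.44 and 10.5 CPM, with cKO replicate 1 alone below the others (log2 fold change -0.24, SE 0.27, and -0.0091 without that library). Rora, a receptor of thalamic and cerebellar neurons among others, was at 2.65 and 2.78 CPM in WT and 2.74 and 2.98 CPM in cKO.

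The promoters of the REV-ERB genes are shown because the 2 paralogs are closely related and yet differ in level 2.22-fold to 3.57-fold per kilobase. Capitals again mark AGGTCA. Nr1d1, at chr11:98775328-98775627 on the minus strand of GRCm38.p6, holds no match to AGGTCA or CACGTG, and Nr1d2, at chr14:18239057-18239356 on the minus strand, holds 1 match to AGGTCA that begins 77 bases before the start.
Nr1d1: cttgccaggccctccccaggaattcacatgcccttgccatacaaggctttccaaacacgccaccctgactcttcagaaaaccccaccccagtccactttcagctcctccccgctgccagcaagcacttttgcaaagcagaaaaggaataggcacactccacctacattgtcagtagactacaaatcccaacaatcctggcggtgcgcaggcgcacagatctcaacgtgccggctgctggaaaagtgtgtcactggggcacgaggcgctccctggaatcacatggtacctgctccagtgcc
Nr1d2: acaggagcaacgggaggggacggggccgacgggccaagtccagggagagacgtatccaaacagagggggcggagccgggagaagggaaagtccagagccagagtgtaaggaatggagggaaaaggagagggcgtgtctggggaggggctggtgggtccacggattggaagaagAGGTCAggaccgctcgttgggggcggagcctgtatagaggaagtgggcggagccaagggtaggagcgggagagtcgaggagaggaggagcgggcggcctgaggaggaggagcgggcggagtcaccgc

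Of 15 tested genes of the clock loop 0 passed 5% FDR, 10 had a log2 fold change above 0 and 5 below, with a median of 0.09. The output transcription factor gene Tef was at 85.3 and 74.8 CPM in WT and 79.9 and 85.2 CPM in cKO. Cry2, a repressor of the loop, was at 61.1 and 43.2 CPM against 59.5 and 54.8 CPM. The repressor gene Per1 was at 52.0 and 44.3 CPM in WT and 59.8 and 54.0 CPM in cKO, with groups that did not overlap (log2 fold change 0.24, SE 0.15). The time of day at which tissue was taken is not given in the labels.

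Steroid receptor genes were expressed at low levels. Nr3c1, the glucocorticoid receptor gene, was at 5.94 and 6.15 CPM in WT and 4.25 and 6.42 CPM in cKO (log2 fold change -0.18, SE 0.32). The mineralocorticoid receptor gene Nr3c2 was at 4.44 and 2.19 CPM in WT replicates 1 and 4 and 3.36 and 4.55 CPM in cKO replicates 1 and 2, lowest in WT replicate 4. Pgr, the progesterone receptor gene, was at 1.73 and 0.946 CPM in WT and 2.52 and 1.92 CPM in cKO, from 16 to 45 reads. Both cKO libraries were above both WT libraries, and the log2 fold change was 0.73 (SE 0.46, edgeR adjusted p = 0.956), or 0.36 without WT replicate 4. Esr1, the estrogen receptor alpha gene, had 2 to 4 reads per library. Of 8 tested chaperones of steroid receptors, 0 passed 5% FDR, 3 were above 0 and 5 below, with a median of -0.03. Hsp90ab1 was at 2717 and 2582 CPM in WT and 2534 and 2669 CPM in cKO, Hspa8 at 2145 and 1885 CPM against 1993 and 2140 CPM, and Hsp90aa1 at 522 and 568 CPM against 519 and 551 CPM. Of 8 tested glucocorticoid targets 0 passed 5% FDR, 6 were above 0 and 2 below, with a median of 0.06. Ddit4, an inhibitor of mTOR signalling, was at 104 and 129 CPM in WT and 125 and 117 CPM in cKO, and Fkbp5, a chaperone that restrains the glucocorticoid receptor, at 74.3 and 85.3 CPM against 77.1 and 75.6 CPM. In both genes the cKO values lay between those of WT.

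The estrogen-related receptors, orphans that act on energy metabolism, spanned a wide range of levels. Esrra was at 40.9 and 40.4 CPM in WT and 45.6 and 43.6 CPM in cKO. Its means were 40.6 ± 0.374 and 44.6 ± 1.42 CPM (SD, n = 2 each), a log2 fold change of 0.14 (SE 0.14, edgeR adjusted p = 0.956). Its exons share 73 bases with Trmt112 on the other strand. Esrrg was at 7.96 and 12.6 CPM in WT replicates 1 and 4 and 9.79 and 6.30 CPM in cKO replicates 1 and 2, highest in WT replicate 4 (log2 fold change -0.35, SE 0.34, and 0.02 without that library). Esrrb was at 1.4999 and 0.591 CPM in WT replicates 1 and 4 and 0.391 and 0.700 CPM in cKO replicates 1 and 2, from 26 reads in WT replicate 1 and 7 to 12 in the other 3 libraries. Only WT replicate 1 was high, and the log2 fold change of -0.94 (SE 0.65, edgeR adjusted p = 0.956) was -0.11 without it.

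Among the other orphan receptors WT replicate 4 was often the library at the end of the range. Nr4a3 was at 50.2 and 30.5 CPM in WT replicates 1 and 4 and 42.8 and 57.5 CPM in cKO replicates 1 and 2. The log2 fold change was 0.31 (SE 0.27), 0.0036 without WT replicate 4 and 0.72 without WT replicate 1 (edgeR adjusted p = 0.0328). Nr2c2, which encodes testicular receptor 4, was at 7.62 and 16.492 CPM in WT and 9.90 and 7.76 CPM in cKO. Its log2 fold change of -0.45 (SE 0.39) turned to 0.22 without WT replicate 4 and was -0.90 without WT replicate 1 (edgeR adjusted p = 0.0394). Nr2f6 was at 3.92 and 8.99 CPM in WT and 4.98 and 4.96 CPM in cKO, with WT replicate 4 alone high (log2 fold change -0.38, SE 0.43, and 0.35 without that library). Both genes share exon bases with a neighbour on the other strand, 4590 with Mrps25 for Nr2c2 and 1622 with Ocel1 for Nr2f6. In WT replicate 4 the neighbour Mrps25 was at 22.4 CPM against 23.9 to 24.2 CPM elsewhere, and Ocel1 at 11.3 CPM against 17.4 to 18.1 CPM. The part of reads in shared bases in the Nr2c2 and Nr2f6 values was not tested. Nr2c1, the paralog of Nr2c2, was at 13.7 and 17.5 CPM in WT and 14.8 and 13.2 CPM in cKO. Nr6a1, a receptor of germ and stem cells, was at 7.21 and 5.50 CPM against 6.60 and 7.41 CPM.

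The remaining members were too low for the test. In the 7 that were listed in both tables but did not pass the filter (Pparg, Ppara, Vdr, Nr1h5, Esr1, Nr5a2 and Nr0b1), counts ran from 1 to 17 reads per library. Nr0b1, which lacks the usual DNA-binding domain and is known from hypothalamus, pituitary, adrenal and gonad, had 6 and 17 reads in WT replicates 1 and 4 and 3 and 4 reads in cKO replicates 1 and 2. The sum of the hypothalamus markers was also highest in WT replicate 4 with 8 of 10 listed, and Nkx2-1 was at 95.5 CPM there. Among the listed markers, Pomc was highest in another library, at 2.63 CPM in cKO replicate 1 against 1.89 CPM in WT replicate 4. The part of hypothalamic tissue in the Nr0b1 count was not tested. Nr1h4 and Nr1i3 were listed only in the table of cKO replicate 2 and WT replicate 1, with 1 to 3 reads.

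The 2 WT libraries differed from each other more than WT replicate 1 differed from either cKO library. WT replicate 4 was the lowest library in 11 of 25 tested members (44%) and the highest in 8 (32%), against 36.3% and 37.6% of all genes tested. WT replicate 1 was the lowest in 6 and the highest in 3, against 16.8% and 17.5% of all genes. The lowest was cKO replicate 1 in 4 members and cKO replicate 2 in 4, against 22.5% and 24.4% of all genes, and the highest was cKO replicate 1 in 5 and cKO replicate 2 in 9, against 22.7% and 22.1%. From WT replicate 1 to WT replicate 4, 5 of 25 members differed by more than 2-fold (20%, against 9.14% of all genes), and the median absolute log2 difference was 0.39, beside 0.30 over all genes. From WT replicate 1 to cKO replicates 1 and 2 the median absolute log2 differences of members were 0.23 and 0.15, beside 0.15 and 0.14 over all genes. Beyond 2-fold was 1 member in each (4%), against 2.69% and 2.88% of all genes. Against WT replicate 4 they were 0.46 and 0.53, beside 0.30 and 0.31 over all genes, with 3 members beyond 2-fold in each (12%), against 8.45% and 10.98% of all genes. The members high in WT replicate 4 were led, among those named here, by Nr2f6 and Nr2c2 and those low, relative to WT replicate 1, by Rxrg, Esrrb and Nr3c2. For Esrrb the library apart was WT replicate 1, since WT replicate 4 at 0.591 CPM lay between the cKO values of 0.391 and 0.700 CPM. Mitosis genes, as given above, were highest in the same library, and their part was not tested.

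**Figure D4:**
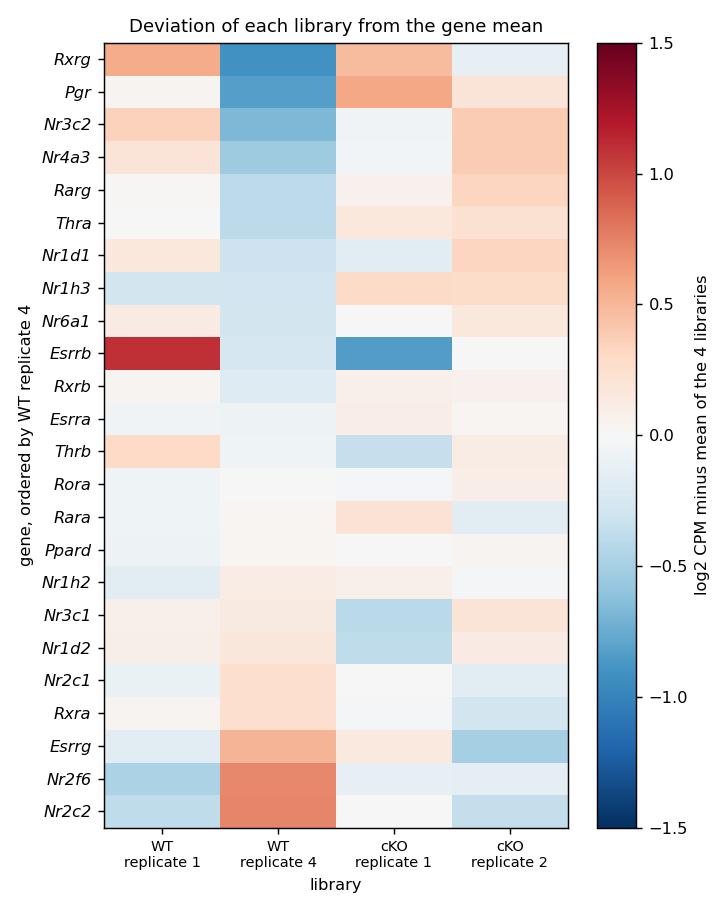
Deviation of each library from the gene's mean over the 4 libraries, on a log2 CPM scale, for 24 of the 25 tested receptor genes, ordered by WT replicate 4. Blue is below and red above the mean. WT replicate 4 is the lowest library in 11 of these genes and the highest in 7.

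The authors' deposited tables compare 1 library with 1 library, so their p-values hold no replicate error. At the series' thresholds (p under 0.05 with a difference of more than 2-fold), 2 of 32 members were higher in cKO replicate 1 than in WT replicate 4 in the authors' deposited table (Pgr and Rxrg), where 4.97% of all genes were. In the same authors' deposited table, 2 others were lower, among them Nr0b1, where 4.64% of all genes were. By adjusted p these 4 stayed, where 4.51% of all genes in the authors' deposited table were higher and 4.21% lower. For cKO replicate 2 and WT replicate 1, the authors' deposited table had 0 of 34 members higher, where 1.44% of all genes were, and 1 lower (Esrrb), where 3.01% of all genes were. By adjusted p it had 0 members in either direction, where 0.464% of all genes in the authors' deposited table were higher and 1.16% lower. In the authors' deposited table the log2 fold changes were 1.38 for Pgr and -2.61 for Nr0b1 in the first pair of libraries and -1.13 for Esrrb in the second. Rxrg went in opposite directions, with log2 fold changes of 1.36 in the first and -0.72 in the second of the authors' deposited tables. Thra was above 0 in both of the authors' deposited tables, at 0.52 and 0.18, and Rxra below 0 in both, at -0.31 and -0.36. The 3 genes named from the first table are among those in which WT replicate 4 lay at an end of the range. They were picked by their difference from this library, which favours such a position. Of all genes tested, WT replicate 4 was the highest library in 37.6% and the lowest in 36.3%.

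Coregulators of nuclear receptors lay on both sides of 0. Of 19 tested, 0 passed 5% FDR, 8 had a log2 fold change above 0 and 11 below, with a median of -0.02. The histone deacetylase gene Hdac3, whose product corepressors carry, was at 158 and 151 CPM in WT and 156 and 151 CPM in cKO. Ncor1, a corepressor, was at 127 and 173 CPM against 136 and 134 CPM, with WT replicate 4 alone high. The coactivator gene Ncoa4, chosen after its values were seen, had the log2 fold change farthest from 0 in this list at -0.74 (SE 0.53), from 7.04 and 21.9 CPM in WT and 10.5 and 6.82 CPM in cKO, again with WT replicate 4 alone high.

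**Figure D5:**
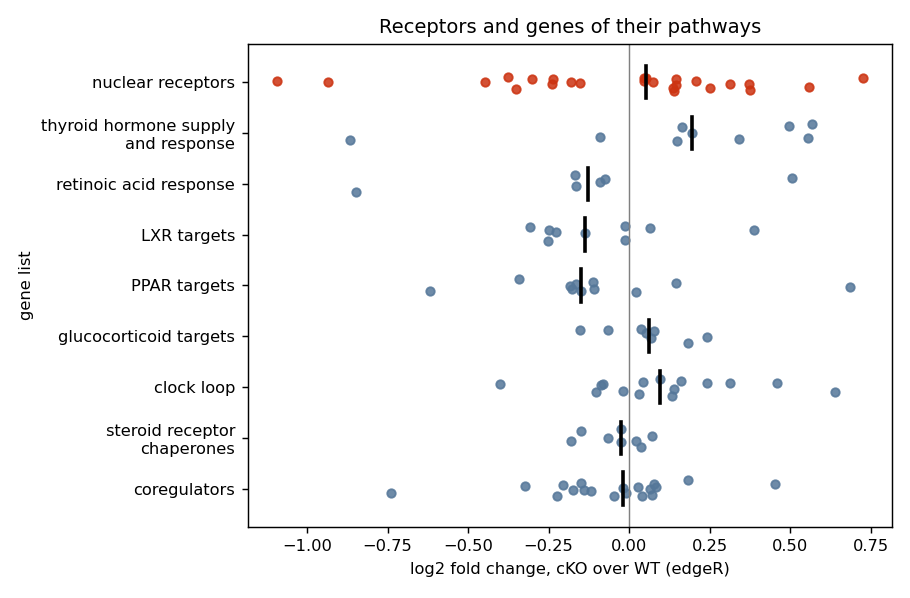
Log2 fold change, libraries labelled cKO over WT, of each tested receptor gene (red) and of each tested gene in 8 lists of partners and targets (blue), with a black line at each list's median. The medians lie between -0.15 and 0.20, and no point passed 5% FDR.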

How the data were processed

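RNA-seq of 4 libraries was analysed from 2 tables, each of 1 cKO and 1 WT library. Per the submitters' processing notes, Bowtie2 2.2.3, TopHat2 2.0.12, HTSeq 0.6.0 and build mm9 were used. Gene positions in the tables matched GRCm38 instead (92.1% of 22574 genes in GENCODE M21 had the same start and end). The authors deposited raw read counts, CPM, a fold change (ratio), its log2 and a p-value with its adjusted value. The deposited CPM put 0.5 reads for a count of 0. A table listed genes with at least 1 read in both libraries or at least 5 in either, as read from the values.

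The tables were merged on gene identifiers (Python 3.11.15). Columns were matched by their headers, since the description labels pair WT replicate 4 and cKO replicate 2 differently. The 19844 genes in both tables were tested with edgeR 4.0.16 in R 4.3.3 (TMM, filterByExpr, quasi-likelihood, two-sided, 2 residual degrees of freedom). SEs came from the F statistic. Exon lengths were unions of GENCODE M21 exons. Promoters came from RefSeq (GRCm38.p6), without chromosome 18. Pairwise chi-square values per gene of 6.09 to 38.9 showed no library deposited again under another name. The fit was also run on simulated data with the same relative spread for all genes. No simulated library stood apart as WT replicate 4 did, so that run cannot show how the fit behaves with such a library.

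Members, lists and tests were chosen with earlier results of these data known. The naming rule took every member, with values per library for those of at least 1 CPM or past a threshold, and the 3 members of each pathway list with the highest mean CPM. Some of these genes, 1 tested member among them, are counted but not reported here. Per1 and Fkbp5 were in 2 lists each. Alternatives were DESeq2 1.42.0, RLE size factors, other filters, genes of 1 table added, the deposited table as a block, and each library left out.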

Additional observations from a re-analysis of the deposited data

How the results depend on the processing

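The count of genes past 5% FDR was 0 under DESeq2, RLE size factors, a minimum mean CPM of 1, no filter, genes of 1 table added and the deposited table as a block, and 0 to 1849 with 1 library left out (1849 without WT replicate 1, 1 without cKO replicate 1, 0 without WT replicate 4 or cKO replicate 2). Under the first 6 settings none of the 24 tested members named here changed direction or call, except that Esrrb had no value at a minimum mean CPM of 1. The member median stayed between 0.004 and 0.064 over all settings, and members below 0 numbered 9 to 15. With 1 library left out, 13 to 20 members had groups that did not overlap, against 7, as did 59.6% to 80.4% of all genes (50% to 76.9% of members), because a group of 1 overlaps less. By adjusted p, 0 members in place of 1 passed for cKO replicate 2 and WT replicate 1 in the authors' deposited table.

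Directions turned in 12 of the members named here when 1 library was left out, and the log2 fold changes ran from -0.70 to 0.021 for Esrrg, -0.12 to 0.41 for Nr1d1, -0.078 to 0.19 for Nr1h2, -0.32 to 0.037 for Nr2c1, -0.90 to 0.22 for Nr2c2, -0.85 to 0.35 for Nr2f6, -0.51 to 0.087 for Nr3c1, -0.16 to 0.85 for Nr3c2, -0.037 to 0.35 for Nr6a1, -0.00089 to 0.10 for Ppard, -0.15 to 0.23 for Rara and -0.34 to 1.13 for Rxrg. Leaving out WT replicate 4 turned 8 of them. The cause was not tested. Thra, Rxrg, Nr4a3 and Nr2c2 passed 5% FDR without WT replicate 1 (4 of 26 members, 15.4%, beside 10.9% of all genes) and under no other setting run. Members under about 50 reads per library have wide intervals. Replicate numbers gave no pairs, since the groups share only number 1, and the deposited table as a block was the one paired fit run.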
